A study of Mus musculus with 7 samples.

Results

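Guanylate-binding proteins (GBPs) are large GTPases of the dynamin superfamily. Interferon-gamma is their classical inducer, acting in part through the transcription factor IRF1. In immune and epithelial cells they coat the vacuoles and surfaces of intracellular pathogens and help to trigger inflammasomes, the caspase-activating complexes of innate immunity. In pancreatic beta cells, inflammatory cytokines such as interleukin-1 beta are known to act largely through NF-kB. The transcripts described here are those of the 7 mouse genes Gbp2, Gbp3, Gbp4, Gbp5, Gbp6, Gbp7 and Gbp9, taken by symbol from the 23329 genes of the count table.

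The RNA came from Beta-TC6, an insulin-secreting mouse line derived from a beta-cell tumour of a transgenic mouse in which the insulin promoter drives viral large T antigen. The line is a single tumour-derived line and stands in for normal beta cells only within that limit. All 7 libraries were labelled wild type; 3 came from cells given IL1B (interleukin-1 beta) and 4 from cells given vehicle. Cells of both groups grew in medium with 15% serum and received a pulse of 10 µM forskolin for 1 h, which synchronises the circadian clock. No source used here gives the dose and duration of IL1B. Nothing in the labels ties the replicates to different cultures, and the p-values therefore reflect library-to-library spread that may be technical.

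Total counts were 6007723 to 6969745 in the IL1B libraries and 5335607 to 7513934 in the vehicle libraries. The second IL1B library and the second vehicle library stood apart from the others of their groups, so values without both are given below. Beta-cell markers were abundant: the insulin transcript Ins2 took 2.14% to 2.27% of counts in IL1B libraries and 1.99% to 2.34% in vehicle libraries. Levels below are in CPM, counts per 1e6 counts of tested genes after scaling. Of 9 beta-cell markers, 2 fell under IL1B by edgeR's quasi-likelihood test, Pdx1 (0.68-fold, adjusted p = 3.00e-07) and Mafa (0.72-fold, adjusted p = 7.01e-06), and 0 rose. By the same test 406 of all 12480 tested genes fell. At an unadjusted p under 0.05, 2 of the markers were higher and 4 lower, and DESeq2 and limma-voom each called 0 higher and 2 lower. Without the second library of each group, 3 were called higher and 4 lower; 3 were called higher without the second vehicle library alone and 1 without the second IL1B library alone. Leukocyte markers, 12 of 13 found in the table, summed to 4.72 to 5.65 CPM in IL1B libraries and 3.53 to 5.64 CPM in vehicle libraries. Ptprc, the pan-leukocyte CD45 gene, had 9 counts over the IL1B libraries and 8 over the vehicle libraries, and Nkg7 had none in any library. Other leukocyte markers went either way: Cd14 had 15 counts over the IL1B libraries and 5 over the vehicle libraries, and Itgam 5 and 0. Lyz2 had 3 and 11, Cd68 36 and 44, and Cd3e 26 and 24. These markers were singled out after their values were seen, and 0 of the list were called in any setting. Fibroblast markers summed to 3.06 to 5.65 CPM in IL1B libraries and 4.70 to 7.40 CPM in vehicle libraries. Endothelial markers summed to 6.41 to 6.92 CPM in IL1B libraries and 4.83 to 6.71 CPM in vehicle libraries. Among them Pecam1, singled out after its values were seen, had 15, 17 and 9 counts in IL1B libraries and 6, 5, 3 and 3 in vehicle libraries. Pecam1 was below the filter of the main test, with an edgeR adjusted p of 0.00578 without that filter. Over the alternative settings 0 to 1 of the endothelial list were called higher and 0 lower. Of 7 markers of other islet endocrine cells, 3 were tested and 1 fell, Irx2, at 5.16 ± 0.71 CPM in IL1B libraries and 9.19 ± 0.801 CPM in vehicle libraries (0.56-fold, edgeR adjusted p = 0.00228), with 1 to 3 of the list lower over the alternative settings. Ppy, also singled out after its values were seen, had 4 counts over the IL1B libraries and 33 over the vehicle libraries (edgeR adjusted p = 0.00480 without the filter). Adjusted p-values without the filter are not on the scale of the main fit: for Gbp3 edgeR gave 3.81e-121 without the filter and 6.18e-13 with it. The part of these markers in the results below was not tested.

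The family lies in 2 gene clusters. The cluster on chromosome 3 runs over 175.1 kb (chr3:142493978-142669041, GRCm38) and holds 6 annotated Gbp genes, among them Gbp5, Gbp7, Gbp3 and Gbp2 on the plus strand. The cluster on chromosome 5 runs over 332.3 kb (chr5:105014150-105346472) and also holds 6, among them Gbp9, Gbp4 and Gbp6 on the minus strand. Coding sequences of the chromosome 5 genes were 90.2% to 98.4% identical over 15 pairs, against 63.8% to 82.5% over 10 pairs on chromosome 3 and 63.9% to 76.7% over 30 pairs between the chromosomes.

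RefSeq promoter windows on GRCm38.p6 were found for 4 of the 7 members, all on chromosome 3. Each is shown as the 250 bases before the RefSeq start, on the plus strand, 5′ to 3′. They are shown because 4 of the 5 tested members lie in this cluster and their windows share an interferon motif. RefSeq starts differ from the starts of the GENCODE gene models that give the gene positions in this report. The Gbp5 window lies inside its GENCODE gene, and the Gbp2 and Gbp3 windows run past their GENCODE starts. Windows before the GENCODE starts were not searched. Capitals mark matches to 4 motifs searched on both strands: the interferon-stimulated response element (ISRE, searched as a pair of GAAA words 2 bases apart, bound by IRF factors), the gamma-activated site (GAS, searched as TTCNNNGAA, an interferon-gamma response site), the AP-1 site (searched as TGANTCA) and the kB site bound by NF-kB. Gbp5 is at chr3:142496684-142496933, Gbp7 at chr3:142530086-142530335, Gbp3 at chr3:142559794-142560043 and Gbp2 at chr3:142620413-142620662.
Gbp5: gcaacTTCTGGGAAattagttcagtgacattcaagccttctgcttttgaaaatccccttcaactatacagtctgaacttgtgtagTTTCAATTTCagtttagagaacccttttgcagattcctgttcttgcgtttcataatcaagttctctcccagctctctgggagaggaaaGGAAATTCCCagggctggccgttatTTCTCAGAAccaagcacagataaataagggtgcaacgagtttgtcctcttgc
Gbp7: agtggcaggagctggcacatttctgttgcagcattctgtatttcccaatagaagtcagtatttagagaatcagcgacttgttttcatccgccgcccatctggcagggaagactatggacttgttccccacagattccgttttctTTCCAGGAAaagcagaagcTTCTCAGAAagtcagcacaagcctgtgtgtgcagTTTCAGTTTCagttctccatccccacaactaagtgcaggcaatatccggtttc
Gbp3: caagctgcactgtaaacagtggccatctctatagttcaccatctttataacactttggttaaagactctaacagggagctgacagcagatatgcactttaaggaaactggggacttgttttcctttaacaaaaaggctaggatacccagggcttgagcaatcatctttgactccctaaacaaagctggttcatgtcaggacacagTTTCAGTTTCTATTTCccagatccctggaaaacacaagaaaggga
Gbp2: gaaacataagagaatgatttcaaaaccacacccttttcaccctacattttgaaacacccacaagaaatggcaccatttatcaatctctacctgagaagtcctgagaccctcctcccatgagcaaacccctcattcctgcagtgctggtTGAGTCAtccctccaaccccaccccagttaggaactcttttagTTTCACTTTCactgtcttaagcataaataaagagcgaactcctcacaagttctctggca

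An ISRE match was present in all 4 matched members, beginning 165 bases before the start in Gbp5, 53 in Gbp7 and 59 in Gbp2. Gbp3 held a pair of overlapping ISRE matches at 45 and 39 bases before the start, and its other annotated start, also in the RefSeq table, had none. Of all 27025 genes with a window of this length, 3.46% had an ISRE match. Gbp2b, in the same cluster but not a member here, also had an ISRE match, at 137 bases before the start. Its RNA, counted under the older symbol Gbp1, had 1 count over the IL1B libraries and 2 over the vehicle libraries. The motif was thus not particular to the genes called higher. GAS matches were present in Gbp5, at 245 and 52 bases before the start, and in Gbp7, at 106 and 87, against 8.13% of all genes. Gbp5 also held a kB match at 77 bases before the start (8.23% of all genes), and Gbp2 an AP-1 match at 102 (7.82% of all genes). A letter match is a description of the window and not a measured binding site.

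**Figure D1:**
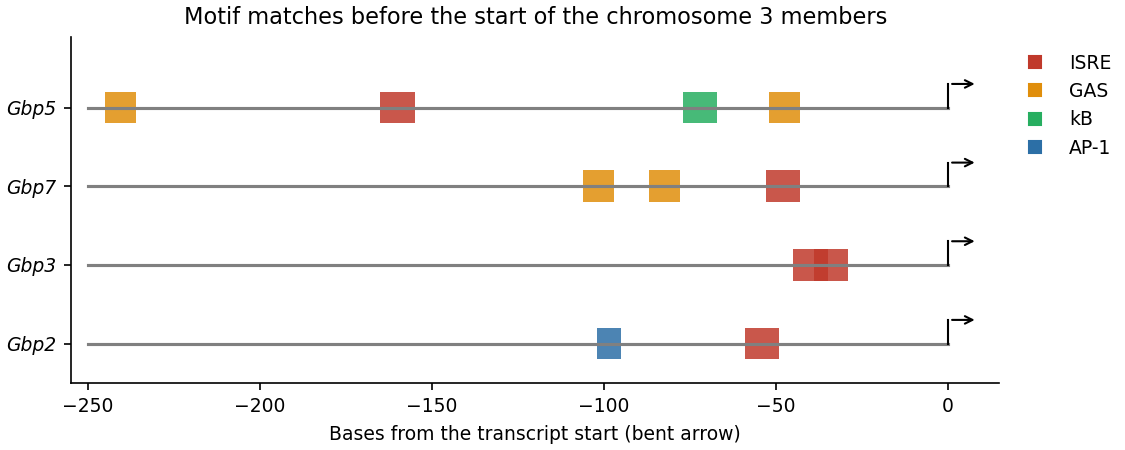
Motif matches in the 250 bases before the start of the chromosome 3 members (x axis, bases from the transcript start; y axis, gene; coloured boxes, matches; bent arrows, starts). Each of the 4 windows holds an ISRE match, GAS matches are in Gbp5 and Gbp7, the kB match is in Gbp5 and the AP-1 match is in Gbp2.

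The comparison asks which Gbp transcripts IL1B moved in these beta cells. Gbp2, Gbp3, Gbp5, Gbp6 and Gbp7 rose, and Gbp4 and Gbp9 had too few counts to be tested. The change ran from 1.57-fold for Gbp7 to 33.8-fold for Gbp5, with a higher ratio for Gbp6 that rests on 1 vehicle count. Over the table, 12480 genes passed the low-count filter, 11.0% of them were called in either direction and 7.76% were called higher at an adjusted p under 0.05; the median log2 change of all tested genes was -0.01. Gbp2, Gbp5 and Gbp6 passed the filter (1.64 CPM in at least 3 libraries) through the IL1B libraries alone, and Gbp3 reached it in 1 of 4 vehicle libraries, so these 4 could have been called higher but not lower. Gbp7 reached it in all 7 libraries. In bulk RNA, more Gbp RNA per cell and more cells with Gbp RNA cannot be told apart.

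Gbp3, the most abundant member in IL1B-treated cells (chr3:142560026-142573209), had 31.6, 26.9 and 31.9 CPM in IL1B libraries, against 1.05, 0.626, 1.76 and 1.49 CPM in vehicle libraries. The groups were far apart, the lowest IL1B library being well above the highest vehicle library. The means were 30.1 ± 2.79 CPM in IL1B libraries and 1.23 ± 0.498 CPM in vehicle libraries (SD, n = 3 and 4), a log2 change of 4.63 (SE 0.19) or 24.8-fold, with an adjusted p of 6.18e-13 by edgeR's quasi-likelihood test. Its counts were 217, 162 and 189 in IL1B libraries, against 8, 4, 10 and 8 in vehicle libraries. Without the second library of each group the log2 change was 4.49.

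Gbp5 and Gbp2 carry a C-terminal prenylation motif that anchors the protein to membranes; mouse Gbp5 has been linked to inflammasome assembly and mouse Gbp2 to defence against Toxoplasma. Gbp5 (chr3:142493978-142522344) had 9.18, 7.81 and 9.28 CPM in IL1B libraries, against 0.132, 0, 0.353 and 0.557 CPM in vehicle libraries. All IL1B libraries were high and all vehicle libraries near 0, with 165 counts over the IL1B libraries and 6 over the vehicle libraries. The log2 change was 5.08 (SE 0.37), 33.8-fold, with an edgeR adjusted p of 5.53e-09. The ratio of summed counts over library sizes was 36.6, with an exact 95% interval of 16.5 to 101 that covers counting error only. Leaving out the fourth vehicle library, which held 3 of those 6 counts, moved the fitted change to 51.0-fold; without the second library of each group the log2 change was 4.76.

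Gbp2 (chr3:142620602-142638008) had 4.66, 2.66 and 6.24 CPM in IL1B libraries, against 0.263, 0.313, 0.529 and 0 CPM in vehicle libraries. Its IL1B libraries were uneven, with the lowest value in the second library, yet the groups did not overlap. The log2 change was 3.92 (SE 0.48), 15.2-fold, with an edgeR adjusted p of 7.07e-06. The ratio of summed counts was 16.2, with an exact 95% interval of 7.52 to 41.4. Without the second library of each group the log2 change was 4.24.

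Gbp6, from the chromosome 5 cluster (chr5:105270702-105293698), had 4.81, 4.32 and 5.74 CPM in IL1B libraries, against 0, 0.157, 0 and 0 CPM in vehicle libraries. It was thus clearly detected in the 3 IL1B libraries, and the vehicle group held a single count, in the second library. There were 93 counts over the IL1B libraries and 1 over the vehicle libraries, a ratio of 124 with an exact 95% interval of 21.7 to 4943. The edgeR adjusted p was 5.73e-08, and the fitted log2 change of 6.37 (SE 0.55) depends on the prior count. Without the second vehicle library the remaining vehicle libraries were all at 0, so that the fold was at least 30.7 against a floor of 3 counts over that group (fitted log2 change 7.96).

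Gbp7, linked in mouse macrophages to the assembly of the phagocyte NADPH oxidase (chr3:142530342-142550149), was the member with a steady level without IL1B. It had 15.3, 16.8 and 16.7 CPM in IL1B libraries, against 8.82, 10.5, 10.2 and 12.3 CPM in vehicle libraries. The lowest IL1B library stood above the highest vehicle library. The means were 16.3 ± 0.836 CPM in IL1B libraries and 10.4 ± 1.41 CPM in vehicle libraries (SD, n = 3 and 4), a log2 change of 0.65 (SE 0.13) or 1.57-fold, with an edgeR adjusted p of 0.00188. Without the second library of each group the log2 change was 0.64. Among all 12480 tested genes it ranked 493 by log2 change, whereas Gbp2, Gbp3, Gbp5 and Gbp6 were all among the first 26. Each of these 5 members had every IL1B library above every vehicle library, which 12.1% of all tested genes did. For all but Gbp7 the filter itself favours that pattern and a high rank. The ranks of Gbp2, Gbp5 and Gbp6 also rest on few vehicle counts.

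Gbp4 (chr5:105115767-105139586) had 0, 1 and 0 counts in IL1B libraries, against 0, 1, 0 and 1 in vehicle libraries. Gbp9 (chr5:105077630-105139539) had 0, 1 and 0 counts in IL1B libraries and none in vehicle libraries. Both lay at or under the floor of 3 counts, equal to 0.160 CPM over the IL1B group and 0.120 CPM over the vehicle group. A difference was not detectable at these counts. The gene models of Gbp4, Gbp9 and Gbp8 overlap on the minus strand, and no source used here says how reads in overlapping models were counted. The 4 other Gbp genes in the table were equally sparse and untested: Gbp1, an older symbol of Gbp2b in the RefSeq table, had 1 count over the IL1B libraries and 2 over the vehicle libraries. Gbp8 had 1 count over the IL1B libraries and none over the vehicle libraries, Gbp11 none over the IL1B libraries and 1 over the vehicle libraries, and Gbp10 none in either group.

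**Figure D2:**
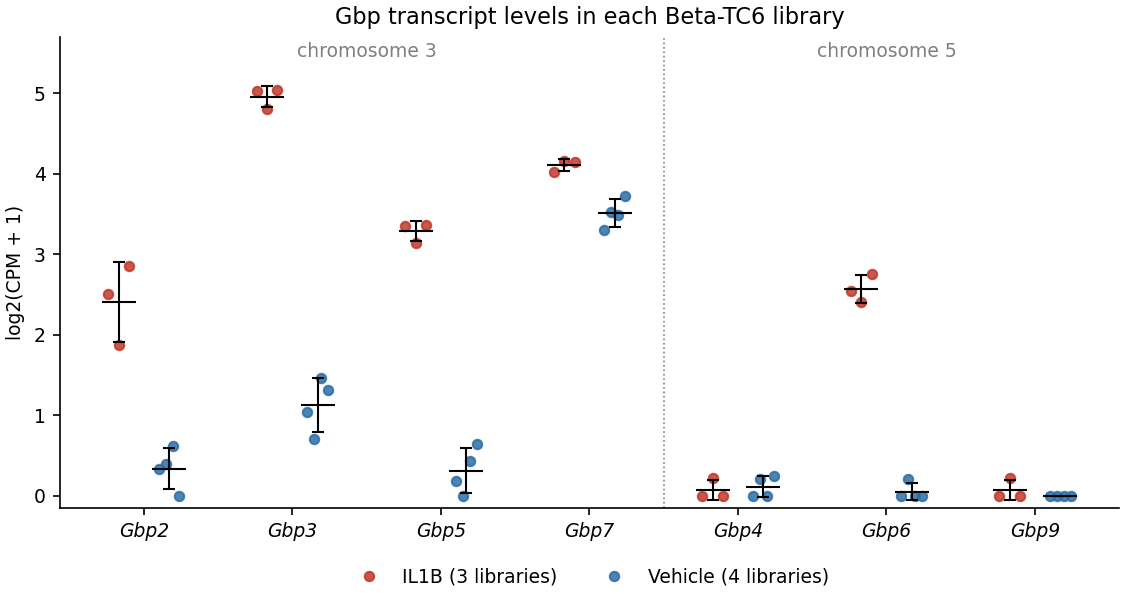
Level of each member in every library as log2(CPM + 1) (y axis) by gene (x axis, grouped by chromosome); points are libraries, red for IL1B and blue for vehicle, and black bars give the mean ± SD on that scale. The IL1B points lie above the vehicle points for Gbp2, Gbp3, Gbp5, Gbp7 and Gbp6, whereas Gbp4 and Gbp9 sit at or near 0 in both groups.

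The make-up of the family's RNA differed between the groups. Member counts summed to 450, 354 and 414 in IL1B libraries, against 78, 75, 73 and 78 in vehicle libraries. Summed levels were 64.7 ± 5.54 CPM in IL1B libraries and 12.3 ± 1.78 CPM in vehicle libraries. Gbp3 made up 46.5 ± 1.45% of member counts in IL1B libraries and 9.89 ± 3.44% in vehicle libraries. Gbp7 made up 25.3 ± 2.85% in IL1B libraries and 84.8 ± 4.1% in vehicle libraries. Gbp3 thus held the largest share in each IL1B library and Gbp7 in each vehicle library, as counts that are not corrected for transcript length.

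**Figure D3:**
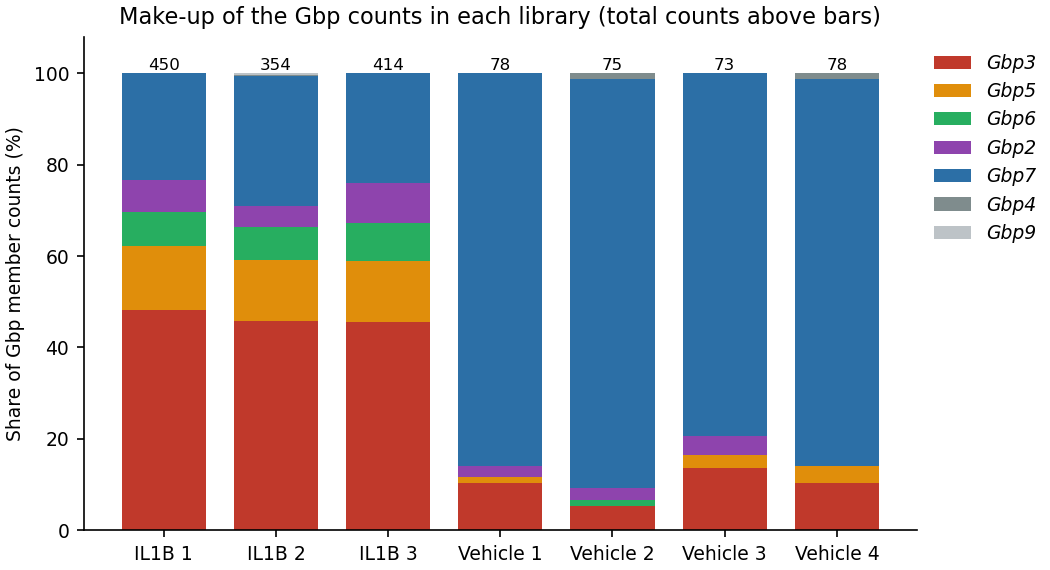
Share of member counts taken by each gene (y axis, percent) in each library (x axis), with total member counts above the bars. Gbp3 leads in the 3 IL1B libraries at 46.5% on average, and Gbp7 makes up 84.8% on average in the 4 vehicle libraries.

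Per kilobase of the longest protein-coding transcript, the order of levels in IL1B libraries was Gbp3 (11.2 ± 1.04 CPM per kb), Gbp7 (2.90 ± 0.149), Gbp5 (2.87 ± 0.268), Gbp6 (1.90 ± 0.276) and Gbp2 (1.80 ± 0.714). Gbp7 and Gbp5 did not differ beyond their spread, nor did Gbp6 and Gbp2. In vehicle libraries the order was Gbp7 (1.86 ± 0.251 CPM per kb), Gbp3 (0.459 ± 0.186), Gbp2 (0.110 ± 0.0864), Gbp5 (0.0852 ± 0.0804) and Gbp6 (0.0150 ± 0.0301). The last 3 overlapped one another. Per kilobase of all annotated exons, the IL1B levels of Gbp5 (1.32 CPM per kb) and Gbp6 (0.832) came below that of Gbp2 (1.80).

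Whether members changed by different amounts was compared over all 10 pairs of tested members, using the log2 ratio of the pair's CPM + 1 in each library. The log2 ratio of Gbp3 to Gbp7 averaged 0.85 ± 0.18 in IL1B libraries and -2.38 ± 0.34 in vehicle libraries (SD). The difference of 3.23 gave p = 0.0571 in the exact two-sided permutation test, the smallest value that 35 splits allow, and an adjusted p of 0.0816 over the pairs. The ratios of Gbp5, Gbp6 and Gbp2 to Gbp7 shifted by 2.37, 1.92 and 1.47, each with the same exact permutation p of 0.0571. In all 4 pairs with Gbp7 the libraries of the groups did not overlap. The same held, with the same exact permutation p, for the ratios of Gbp2 to Gbp3 (difference -1.75), Gbp3 to Gbp5 (0.86) and Gbp3 to Gbp6 (1.31), and the groups overlapped in the other 3 pairs. With 3 libraries against 4 no pair could reach the threshold. Gbp2, Gbp5 and Gbp6 entered the pairs by passing the filter through the IL1B libraries alone, and Gbp3 reached it in 1 of 4 vehicle libraries. The filter thus favours a shift of this sign and separate groups in the pairs with Gbp7. These values are a description and no evidence that the changes were unequal. Among Gbp2, Gbp3, Gbp5 and Gbp6, the intervals of the counted ratios overlap and the pseudocount understates the change of low genes, so no order of change is given.

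Similarity and overlap of the gene models limit how far a count belongs to 1 of them. No source used here says how reads matching several genes were counted. Of the 75-base words in the Gbp6 transcript, 86.1% also occur in Gm43302, which is not in the table. That model overlaps Gbp6 and Gbp10 on the same strand, so these words need not come from a separate gene. Gbp10, a separate gene, held 51.7% of the words, and had 0 counts over the IL1B libraries and 0 over the vehicle libraries. The Gbp6 count is therefore uncertain as a count of Gbp6 alone. For Gbp7 the share was 11.4%, of which 10.2% was in Gm43802, a processed pseudogene within the Gbp7 locus that is also not in the table, and 1.26% in Gbp3. Words shared by Gbp3 and Gbp7 made up 2.68% of Gbp3. The share for Gbp2 was 0.983%, all in Gbp2b, and for Gbp5 0.0671%. For Gbp4 it was 5.35% and for Gbp9 4.32%, spread over the chromosome 5 genes.

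**Figure D4:**
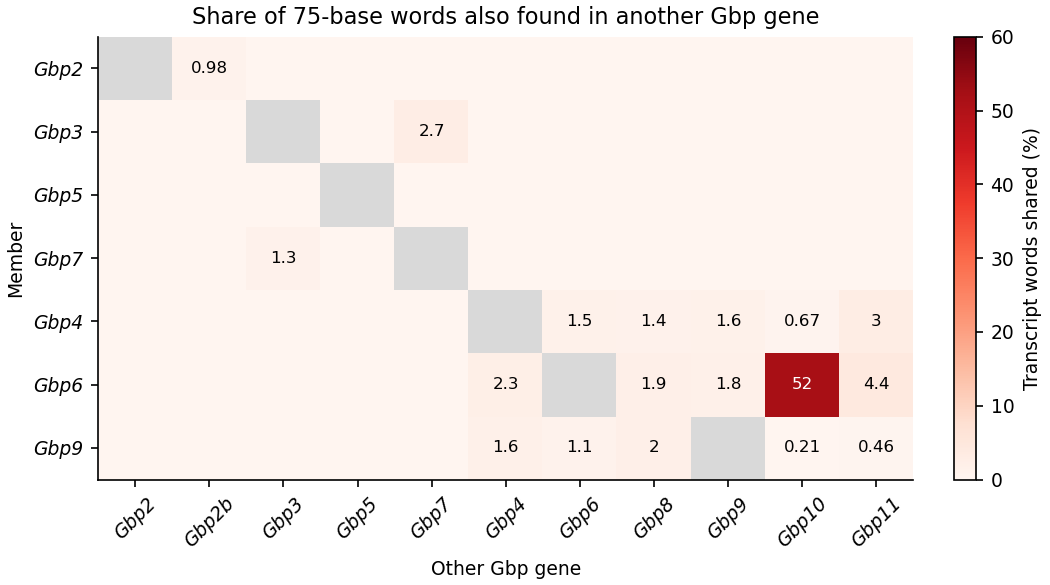
Percent of each member's 75-base transcript words (rows) also found in another Gbp gene (columns; colour scale from 0, darker for more; grey for the gene itself). The largest cell is Gbp6 with Gbp10 at 51.7%, and the chromosome 3 members share little with one another.

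Genes of the interferon pathway that leads to Gbp transcription were set beside the members. Of 16 tested genes among 20, 7 rose (43.8%, against 7.76% of all tested genes) and 0 fell by edgeR. At an unadjusted p under 0.05, 1 had a lower value, and DESeq2 and limma-voom called 0 lower. Over the alternative settings 6 to 9 were called higher and 0 to 1 lower. This list and those below were chosen with earlier results of these data known, so the shares called are descriptions. Irf1, the transcription factor that binds ISRE-type sites in interferon-responsive promoters, had 166, 150 and 170 CPM in IL1B libraries, against 24.0, 24.6, 21.5 and 24.1 CPM in vehicle libraries. The groups lay far apart, at 162 ± 10.5 CPM in IL1B libraries and 23.5 ± 1.38 CPM in vehicle libraries, 6.86-fold with an edgeR adjusted p of 9.60e-16. The interferon-gamma receptor chains also rose: Ifngr2 4.19-fold (edgeR adjusted p = 4.27e-13), at 86.7 ± 3.17 CPM in IL1B libraries and 20.8 ± 1.64 CPM in vehicle libraries, and Ifngr1 1.84-fold (edgeR adjusted p = 1.86e-07), at 59.3 ± 1.82 CPM in IL1B libraries and 32.3 ± 2.65 CPM in vehicle libraries. The phosphatase Ptpn2, which restrains this signalling, rose 1.46-fold, the kinase Tyk2 1.62-fold, Irf2 1.44-fold and the type I interferon receptor chain Ifnar1 1.23-fold, all by edgeR at an adjusted p under 0.05. The median log2 change of the 16 was 0.21.

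Of the pathway genes named whatever their values, Jak1 (edgeR adjusted p = 0.137), Jak2 (0.0823), Irf9 (0.390) and Stat2 (0.771) did not pass. Jak2 passed in 3 of 16 alternative settings. Ifng and Ifnb1, the genes of interferon-gamma and interferon-beta, had 0 counts in all 7 libraries. This allows up to 0.160 CPM over the IL1B group and 0.120 CPM over the vehicle group. Other interferon genes were not examined.

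Of the related GTPases (immunity-related GTPases, Mx proteins and atlastins), 17 of 18 were found in the table and 7 were tested. By edgeR 2 rose (28.6%, against 7.76% of all tested genes) and 0 fell. At an unadjusted p under 0.05, 1 was lower, and 0 were lower by DESeq2 or limma-voom. Over the alternative settings 1 to 2 were called higher and 0 to 1 lower. Irgq, an atypical member of the immunity-related GTPase family, was 76.3 ± 8.90 CPM in IL1B libraries and 40.5 ± 1.73 CPM in vehicle libraries, 1.88-fold with an edgeR adjusted p of 1.76e-07. Irgm1, a regulator of the immunity-related GTPases, was 19.7 ± 0.317 CPM in IL1B libraries and 15.1 ± 1.51 CPM in vehicle libraries, 1.30-fold with an edgeR adjusted p of 0.0335, a call lost in 10 of 16 alternative settings. The median log2 change of the 7 was 0.05.

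Of 27 tested interferon-stimulated genes among 36, 4 rose (14.8%, against 7.76% of all tested genes) and 0 fell by edgeR. At an unadjusted p under 0.05, 0 were lower, and 0 were lower by DESeq2 or limma-voom. The chemokine gene Cxcl10 was 121 ± 18.5 CPM in IL1B libraries and 2.64 ± 1.07 CPM in vehicle libraries, 46.2-fold (edgeR adjusted p = 2.97e-15). Parp14, an ADP-ribosyltransferase, rose 6.18-fold, Ddx58, which encodes the RNA sensor RIG-I, 2.97-fold and the immunoproteasome subunit Psmb10 1.93-fold. The other 23 were not called, and the median log2 change of the 27 was 0.15.

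Of 9 tested partners of GBP action among 16, 3 rose (33.3%, against 7.76% of all tested genes) and 0 fell by edgeR. At an unadjusted p under 0.05, 1 was lower, and 0 were lower by DESeq2 or limma-voom. Over the alternative settings 2 to 4 were called higher and 0 to 1 lower. Gsdmd, the pore-forming target of inflammatory caspases, was 16.5 ± 0.985 CPM in IL1B libraries and 9.41 ± 1.55 CPM in vehicle libraries, 1.75-fold (edgeR adjusted p = 0.000377). The autophagy receptor Sqstm1 rose 1.52-fold and the kinase Pim1 1.40-fold. Casp4, which encodes caspase-11, the sensor of bacterial lipopolysaccharide in the mouse, did not reach the filter and was singled out after its values were seen, with 9, 11 and 8 counts in IL1B libraries and 1, 1, 0 and 0 in vehicle libraries. The ratio of summed counts was 18.6, with an exact 95% interval of 4.70 to 161. The edgeR adjusted p without the filter was 2.02e-05, which is not on the scale of the main fit. The median log2 change of the 9 tested partners was 0.48. Of the 6 prenylation enzymes, 0 passed the edgeR test with the settings used throughout (1 higher and 0 lower at an unadjusted p under 0.05, 1 higher and 0 lower by limma-voom, 0 by DESeq2). The nearest, Pggt1b, was 40.6 ± 4.23 CPM in IL1B libraries and 32.0 ± 5.08 CPM in vehicle libraries (edgeR adjusted p = 0.0509), and edgeR called 1 of the 6 higher with either other filter and without the third IL1B or the third vehicle library.

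**Figure D5:**
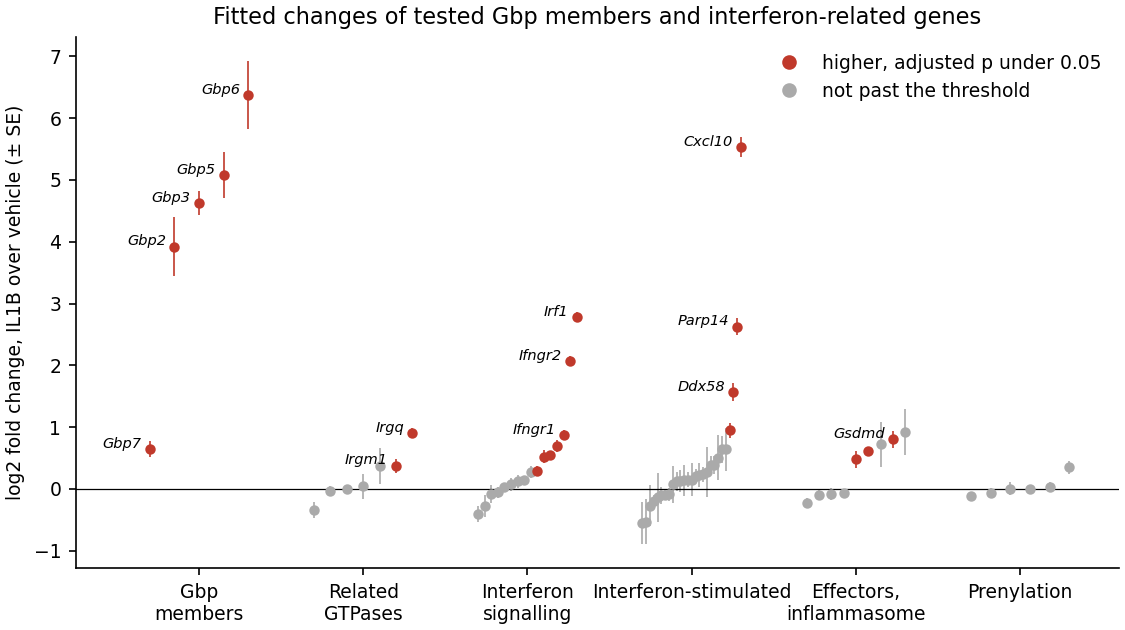
Fitted log2 fold change of IL1B over vehicle (y axis, ± SE) for the tested genes of each list (x axis), red where the edgeR adjusted p was under 0.05 and grey otherwise. Gbp2, Gbp3, Gbp5 and Gbp6 lie between 3.92 and 6.37 and Gbp7 at 0.65, while Cxcl10 at 5.53 stands above the other interferon-stimulated genes.

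Genes next to the clusters were also examined, a choice made after the members' values were seen. Within 250 kb of the chromosome 3 cluster, Pdlim5, Gtf2b and Pkn2 did not pass the edgeR test (adjusted p 0.206, 0.849 and 0.712). Within 250 kb of the chromosome 5 cluster, Lrrc8b and Lrrc8c, subunits of the volume-regulated anion channel, rose 1.39-fold (edgeR adjusted p = 0.0154) and 1.54-fold (edgeR adjusted p = 0.00377). Lrrc8c averaged 16.9 ± 2.51 CPM in IL1B libraries and 11.0 ± 1.25 CPM in vehicle libraries.

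The genes most like the members were ranked by Pearson r between log2(CPM + 1) and the mean standardised profile of the 5 tested members over the 7 libraries. The first 5 of 10900 candidates were N4bp3 (0.9961), Tapbp (0.996), Aim1 (0.9958), Ifngr2 (0.9957) and Fam46b (0.995). These libraries form the 2 treatment groups, so a high r mostly repeats a difference between groups, and 360 candidates had r above 0.95. N4bp3 was 16.8 CPM in IL1B libraries and 8.11 CPM in vehicle libraries, and Tapbp, a chaperone of MHC class I peptide loading, was 219.8 CPM in IL1B libraries and 122 CPM in vehicle libraries.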

How the data were processed

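RNA-seq was analysed from 1 table of raw counts per gene symbol that the authors deposited, with 3 IL1B and 4 vehicle columns; per the submitters' processing notes the build was mm10, and STAR, RSEM, HOMER and DESeq2 are among the tools named, without roles. No source used here gives the aligner settings, the strand or the handling of reads matching several genes. The table numbers its IL1B columns 1 to 3 while titles number the samples 1, 3 and 4, so IL1B columns were tied to the group only.

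Counts were tested with edgeR 4.0.16 (R 4.3.3). Low genes were dropped by filterByExpr, libraries were scaled by TMM, and IL1B was compared with vehicle by quasi-likelihood F tests without covariates and with Benjamini-Hochberg adjustment over 12480 genes at 0.05. Levels are mean CPM ± SD. Intervals are exact at 95% and cover counting error only; floors are 3 counts. The alternatives were scaling by total counts, upper quartiles or RLE, no filter, 1 CPM in 3 libraries, DESeq2 1.42.0, limma-voom (limma 3.58.1), leaving out each library, and leaving out the second library of each group; a pseudocount of 0.5 CPM for pairs and a block on column numbers were added after seeing the data. Pairs of libraries within a group differed beyond sampling noise (chi-square per degree of freedom 1.53 to 4.93 over 9 pairs).

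Gene models, transcripts and coding sequences came from GENCODE M21 (GRCm38), and promoter windows from RefSeq (GRCm38.p6). The members and lists, and the rule for named genes (members, other Gbp genes, up to 6 called genes per list, a fixed set of interferon genes and the 5 nearest profiles), were chosen with earlier results of these data known. A gene among the named interferon genes is not reported here and is left out of the list counts. The list of related GTPases includes genes chosen by family and not by induction.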

Additional observations from a re-analysis of the deposited data

Results flagged for a closer look

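Among 19 sets of vehicle values checked for a library far from the rest, 1 was flagged, where chance flags about 1 in 20. The Gbp6 level in the second vehicle library was 0.157 CPM, a single count, while the other 3 vehicle libraries were at 0. A single count among zeros meets the criterion by construction, so the flag says nothing more about that library.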

How the results depend on the processing

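Gbp2, Gbp3, Gbp5, Gbp6 and Gbp7 stayed higher and past the threshold in all 16 alternatives: log2 changes were 3.57 to 4.33 for Gbp2, 4.42 to 4.84 for Gbp3, 4.68 to 5.67 for Gbp5, 5.56 to 8.05 for Gbp6 and 0.57 to 0.73 for Gbp7, the last with an edgeR, DESeq2 or limma-voom adjusted p of at most 0.0122. Without the second library of each group the Gbp6 value was 8.05. The count of genes lower over the whole table was 406 and ran from 252 to 589 when 1 library was left out (252 without the third IL1B library); it was 676 when the second library of each group was left out. The cause of these shifts was not tested. Per kilobase of all annotated exons, the IL1B level was 9.23 CPM for Gbp3, 1.32 for Gbp5 and 0.832 for Gbp6. With words of 50 and 100 bases, the shared percent was 2.07 and 0 for Gbp2, 4.79 and 0.929 for Gbp3, 12.8 and 2.88 for Gbp4, 0.898 and 0 for Gbp5, 90.2 and 82.9 for Gbp6, 12.9 and 10.2 for Gbp7, and 9.56 and 2.01 for Gbp9. Of 320 list counts recomputed, 282 were within 1.5 times the value given and 38 were not. Low vehicle counts limit the folds of Gbp2, Gbp5 and Gbp6. The IL1B columns carry numbers that differ from the sample titles, so a pairing is not established. Between libraries with the same column number, r over genes of the deviations from the group mean was 0.125, 0.00942 and -0.019. If the IL1B columns follow the order of the titles, the second would pair with vehicle 3 (r of 0.0774) and the third with vehicle 4 (0.0506). A block by that order was not fitted. A fit with the column numbers as a replicate block, added after seeing the data, kept the calls of the 5 members (log2 change 5.67 for Gbp5 and 0.73 for Gbp7). It called 250 genes lower over the table.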
